A study of Rattus norvegicus with 8 samples.

Results

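The major histocompatibility complex (MHC) class II genes of the rat RT1 region, with Cd74 and Ciita, were followed in whole blood of rats of 2 hypertension models before and after administration of Chios mastic gum (CMG), the resin of Pistacia lentiscus var. Chia. The 9 genes were chosen by name: RT1-Ba and RT1-Bb, RT1-Da and RT1-Db1, RT1-DMa and RT1-DMb, RT1-DOb, Cd74 and Ciita. They are 9 of the 17446 genes in the count file. Of these 9, 7 had enough counts to be tested, whereas RT1-DMa and RT1-DMb did not pass the filter on low counts in any comparison. By edgeR's quasi-likelihood test none of the 7 met the study's criterion for a changed gene after CMG in either model. In the DOCA–HS model all 7 had a fold change below 1 after CMG, and in the AngII model 3 of 7 were above 1.

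The study used male wild-type Wistar rats of 12 to 14 weeks of age and 8 libraries, 2 in each of 4 groups. In the AngII model, angiotensin II was delivered by minipump at 0.4 mg/kg/day, and the rats were bled in week 1 (before CMG) and in week 5 (after CMG). In the DOCA–HS model, deoxycorticosterone acetate at 100 mg/kg was combined with drinking water that held 0.9% NaCl and 1% KCl, and bleeding was in week 3 (before CMG) and in week 7 (after CMG). CMG was given at 220 mg/kg for 4 weeks, so the after groups also carry 4 further weeks of exposure to AngII or DOCA–HS. No normotensive or vehicle group was analysed here, and CMG and the longer time under AngII or DOCA–HS cannot be told apart. In bulk blood, fewer cells of a type and less RNA per cell cannot be told apart either.

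MHC class II molecules display peptides from taken-up proteins to CD4+ T cells. In blood they are carried mainly by B cells, monocytes and dendritic cells, and rat T cells can acquire them on activation. Each molecule is a pair of an alpha and a beta chain. RT1-Ba and RT1-Bb encode the pair that corresponds to human HLA-DQ, and RT1-Da and RT1-Db1 the pair that corresponds to HLA-DR. The invariant chain Cd74 occupies the groove of a new molecule until it reaches the endosome, where RT1-DM (RT1-DMa with RT1-DMb) loads the peptide and RT1-DO, of which RT1-DOb is the beta chain, restrains RT1-DM. Ciita is the transactivator that the class II promoters need, and it acts through a complex of RFX, CREB and NF-Y factors bound there.

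That complex binds a conserved promoter module, and the letters of this module are shown because they are what the structural genes share upstream of their start, apart from any count. RefSeq promoters (assembly GRCr8, 250 bases before to 50 after the gene start) were available for 7 of the 9 genes, and Ciita and RT1-DMb had none in that table. After reading these sequences, 3 motifs were searched on both strands. GATTGG, the reverse complement of the CCAAT box that NF-Y binds, was in 6 of 7 members and in 16.1% of 27457 genes. GCAAC, part of the X box that RFX binds, was in 5 of 7 members and in 36.9% of genes. ACNGATG, which spans the end of the X box and overlaps GCAAC by 2 bases where both are present, was in 5 of 7 members and in 10.8% of genes. On the transcribed strand, GCAAC followed by GATTGG with starts at most 50 bases apart was found in 4 of 7 members and in 0.331% of genes, and ACNGATG followed by GATTGG in 5 of 7 members and in 0.0838% of genes. Capitals mark the motif matches in the windows of 62 bases that follow, each written 5′ to 3′ on the gene's strand.
RT1-Da, chr20:4515315-4515376, plus strand: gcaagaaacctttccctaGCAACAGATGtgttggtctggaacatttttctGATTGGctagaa
RT1-Db1, chr20:4560232-4560293, minus strand: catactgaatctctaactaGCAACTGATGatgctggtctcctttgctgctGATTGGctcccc
RT1-Ba, chr20:4576963-4577024, plus strand: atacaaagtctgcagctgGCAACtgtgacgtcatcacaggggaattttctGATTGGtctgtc
RT1-Bb, chr20:4604169-4604230, minus strand: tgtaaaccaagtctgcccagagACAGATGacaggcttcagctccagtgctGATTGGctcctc
RT1-DOb, chr20:4627596-4627657, minus strand: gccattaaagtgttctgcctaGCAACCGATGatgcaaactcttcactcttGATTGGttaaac
RT1-DMa, chr20:4712389-4712450, minus strand: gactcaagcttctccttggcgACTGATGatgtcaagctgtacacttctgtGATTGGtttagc
From the start of GCAAC to the start of GATTGG there were 32 bases in RT1-Da and RT1-Ba, 31 in RT1-Db1 and 29 in RT1-DOb. RT1-DMa, which was almost without counts, carried ACNGATG and GATTGG as RT1-Da and RT1-Db1 did. Cd74 lies on chromosome 18 and held GCAAC but neither of the other motifs in its window. A match of letters is a description of the window and does not show a bound site. The motifs were chosen after these promoters were read, so their shares in members and in all genes are not a test. The 5 members with ACNGATG followed by GATTGG are themselves among the 23 genes that have it.

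Levels are given as normalized CPM, the counts in each 1000000 of the library total after scaling by the TMM factor, on a single scale for all 8 libraries. No transcript lengths were used, so levels are compared between libraries and not between genes. Library totals ran from 4149104 to 13205565 counts, of which 61.9% to 84.3% fell on hemoglobin genes. The second library after CMG in the DOCA–HS model stood apart, with 651764 counts outside hemoglobin, against at least 2195735 in the other 7, and with 2686 genes at 10 or more counts, against at least 6097. It held 535 counts over the 9 class II genes, whereas the other libraries held 1703 to 13302. The limit that a count of 0 allows, 3 counts, corresponds to 2.11 CPM in that library and to 0.166 to 0.507 CPM in the others.

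Cd74, the invariant chain, was measured in the AngII model at 211 and 415 CPM before CMG and, after CMG, at 185 and 398 CPM. In both AngII groups the second library was well above the first, and the groups overlapped. The AngII means were 313 ± 144 CPM before and 292 ± 150 CPM after (SD, n = 2). In the DOCA–HS model Cd74 stood at 469 and 402 CPM before CMG and at 258 and 278 CPM after it, so that both later libraries lay below both earlier ones. The DOCA–HS means were 436 ± 47.6 CPM before and 268 ± 14.5 CPM after (SD, n = 2). The log2 fold change of Cd74 was -0.07 (SE 0.50) in AngII, with an adjusted p of 0.972 by edgeR's quasi-likelihood test, and -0.70 (SE 0.58) in DOCA–HS, with an adjusted p of 0.997.

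RT1-Da, the alpha chain of the DR-like pair, was at 54.1 and 114 CPM before and at 36.9 and 89.3 CPM after CMG in AngII. The DOCA–HS libraries gave 122 and 88.1 CPM before CMG and 65.7 and 29.5 CPM after it. The AngII groups overlapped and the DOCA–HS groups did not. RT1-Da had the lowest fold change of the members in both models, with a log2 value of -0.38 (SE 0.51) in AngII and -1.12 (SE 0.57) in DOCA–HS, and edgeR's unadjusted p was 0.476 and 0.0819 (adjusted p 0.871 and 0.997). Its partner RT1-Db1 was at 18.6 and 28 CPM before and 16.2 and 34.8 CPM after CMG in AngII. In DOCA–HS RT1-Db1 stood at 34.9 and 28.3 CPM before CMG and at 20.4 and 21.8 CPM after it. The later DOCA–HS pair was again below the earlier pair, with a log2 fold change of -0.58 (SE 0.45), and the AngII value was 0.16 (SE 0.41). RT1-Db1 has a near-identical copy, RT1-Db2, whose group means were 0.984 to 1.73 CPM, and how the authors' counting divided reads between the copies is uncertain.

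RT1-Ba, the alpha chain of the DQ-like pair, was at 10.8 and 37.1 CPM before and at 11.7 and 36.3 CPM after CMG in AngII. The second AngII library was the higher one both before and after CMG, and the groups overlapped. In DOCA–HS RT1-Ba was at 57.8 and 38.9 CPM before CMG and at 29.9 and 15.5 CPM after it, without overlap. The log2 fold change of RT1-Ba was 0.06 (SE 0.64) in AngII and -1.06 (SE 0.52) in DOCA–HS, where edgeR's unadjusted p was 0.0763 (adjusted p 0.997). The beta chain RT1-Bb was at 20.2 and 51.5 CPM before and 13.6 and 46.7 CPM after CMG in AngII. In DOCA–HS RT1-Bb was at 27.1 and 41 CPM before CMG and at 15.4 and 28.8 CPM after it. The groups of RT1-Bb overlapped in both models, with log2 fold changes of -0.20 (SE 0.60) and -0.65 (SE 0.52).

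Ciita, the transactivator, was in AngII at 5.34 and 8.61 CPM before and at 6.39 and 15.6 CPM after CMG, and its groups overlapped. Its AngII log2 fold change of 0.72 (SE 0.45) was the highest of the members, with an adjusted p of 0.782 by edgeR. In DOCA–HS Ciita was at 18 and 11.9 CPM before CMG and at 13.4 and 2.11 CPM after it. The lowest of these values rested on 3 counts and the groups overlapped, with a log2 fold change of -0.75 (SE 0.66) and an adjusted p of 0.997. RT1-DOb, the DO beta chain, was at 3.69 and 4.22 CPM before and 2.24 and 5.17 CPM after CMG in AngII, a log2 fold change of -0.01 (SE 0.43). In DOCA–HS RT1-DOb was at 6.14 and 4.03 CPM before CMG, at 3.92 CPM in the first library after it, and at 0 counts in the second. Against the 3-count limit of that last library, RT1-DOb was at least 2.41-fold lower there than in the mean before CMG, for counting error alone.

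The DM chains were at the edge of detection. RT1-DMa had 2 counts in the first DOCA–HS library before CMG and 0 in the other 7 libraries. RT1-DMb had 1 and 9 counts before and 0 and 1 after CMG in AngII, and 1, 0, 0 and 0 counts in DOCA–HS. Expression of the DM chains beyond these few counts was not detected in these libraries. The first DOCA–HS library before CMG held 111 counts of RT1-DOb and 8486 of Cd74. The reason for the low counts of the DM chains was not tested. Any change in the DM chains could not be measured.

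**Figure D1:**
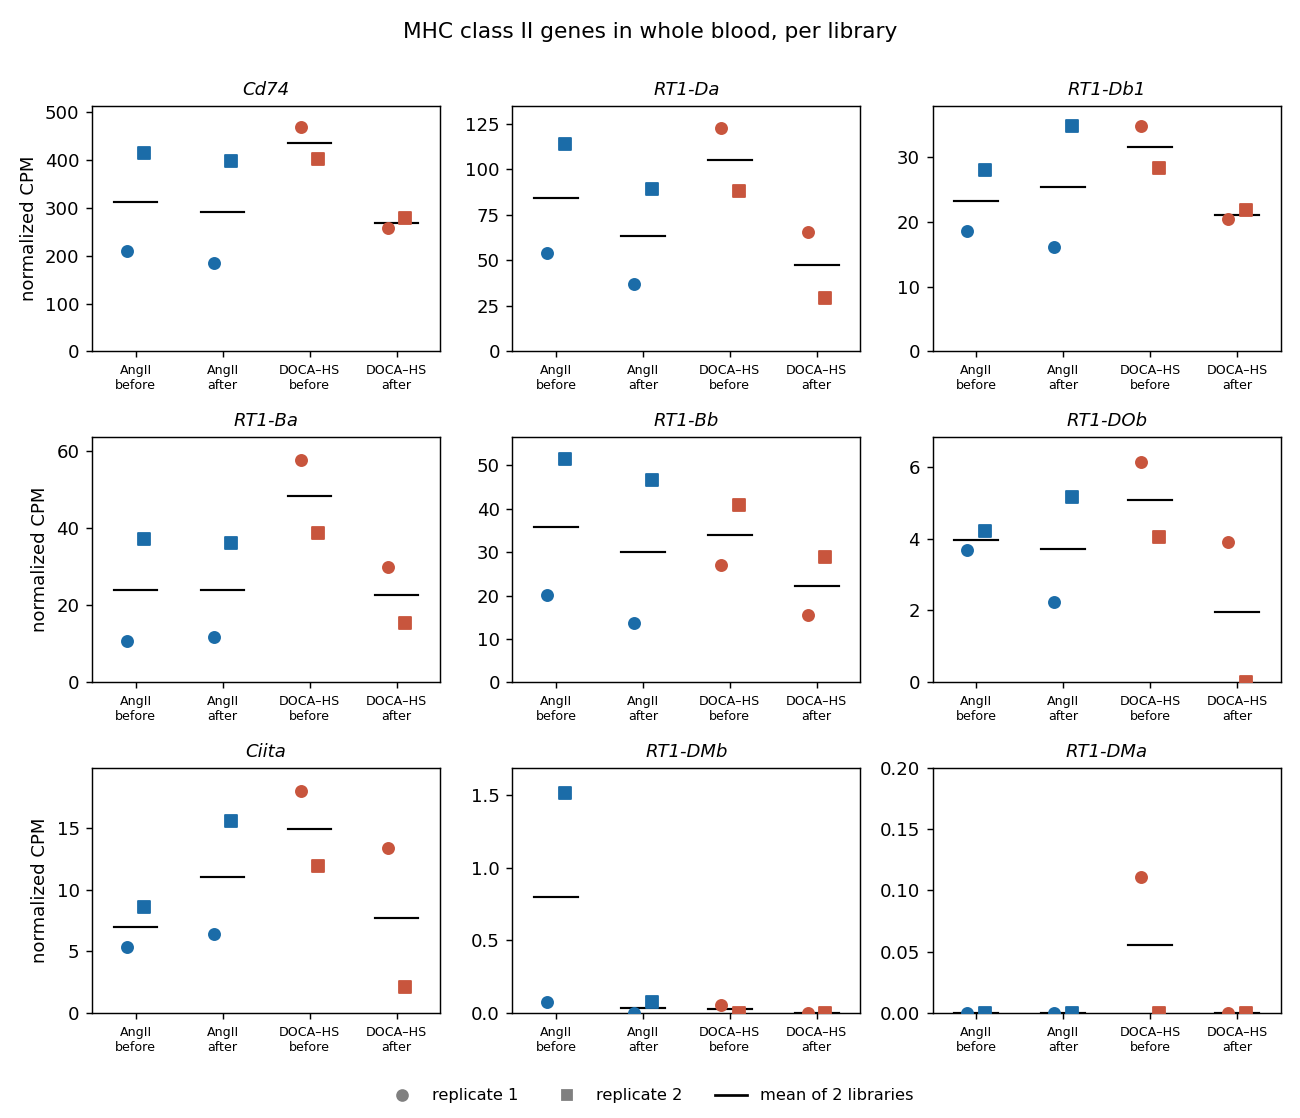
Normalized CPM (vertical axis of each panel, linear, from 0) of the 9 class II genes in each library, with 1 panel per gene and the 4 groups along the horizontal axis. Points are libraries and short lines are means of 2. For Cd74, RT1-Da, RT1-Db1, RT1-Ba and RT1-DOb the DOCA–HS points after CMG lie below those before it, whereas every AngII pair of groups overlaps for the 7 tested genes.

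After CMG in the AngII model, 0 of the 7 tested genes met that criterion, which asks for a change of more than 1.5 on the log2 scale, up or down, and an unadjusted p of at most 0.05. Across all 7201 genes tested there, 0.903% met it as higher and 0.333% as lower, and 6.65% had a p of at most 0.05, which was reached by 0 of 7 class II genes. By DESeq2 and by limma-voom 0 of 7 met the criterion as well. The adjusted p was under 0.05 for 0 genes in all by edgeR and limma-voom and for 3 by DESeq2, none of them a class II gene. The median log2 fold change of the class II genes was -0.01, and that of all genes was also -0.01. By edgeR 3 members were above 0, as were 49.0% of all genes, but with library totals as the scale all 7 were above 0, with a median of 0.44 against 0.36 for all genes. The median moved with the library left out, from -0.79 without the second library after CMG to 0.43 without the second library before it. The groups of all 7 tested members overlapped, whereas 21.3% of genes did not overlap and were higher and 18.6% were lower after CMG.

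After CMG in the DOCA–HS model, 0 of 7 met the criterion, against 1.79% of 7720 genes as higher and 0.259% as lower. An unadjusted p of at most 0.05 was found for 0 of 7 members and 3.17% of genes, and the adjusted p was under 0.05 for 0 genes, by DESeq2 and limma-voom too. With those tools 0 of 7 met the criterion, and limma-voom gave 1 member a p of at most 0.05. The median log2 fold change of the class II genes was -0.75, against -0.04 for all genes. All 7 members were below 0, under each of the scalings tried as well, and 47.5% of all genes were above 0. With library totals as the scale the median of all genes itself moved to -0.76, and the class II median was -1.53, which is -0.77 relative to all genes, while on the main scale it was -0.72 relative to all genes. In 5 of 7 (RT1-Ba, RT1-Da, RT1-Db1, RT1-DOb and Cd74) both later libraries lay below both earlier ones on the main scale, against 21.1% of all genes. The gap of RT1-DOb was narrow, 4.03 CPM against 3.92 CPM. With library totals, and with totals outside hemoglobin, RT1-Bb took the place of RT1-DOb among the 5, against 23.9% and 27.9% of all genes. When the first library after CMG was left out, which left the shallow second library alone, 4 of 7 met the criterion as lower. These were RT1-Ba, RT1-Da, RT1-DOb and Ciita, with a lowest edgeR adjusted p of 0.013 and a median of -1.65. In that fit 1106 of all 8126 genes met the criterion as lower and 606 as higher, and the median of all genes was -0.37. Without the shallow library 0 of 7 met it, the lowest unadjusted p among the members was 0.00147 and the lowest edgeR adjusted p 0.0786, and the median was -0.67.

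**Figure D2:**
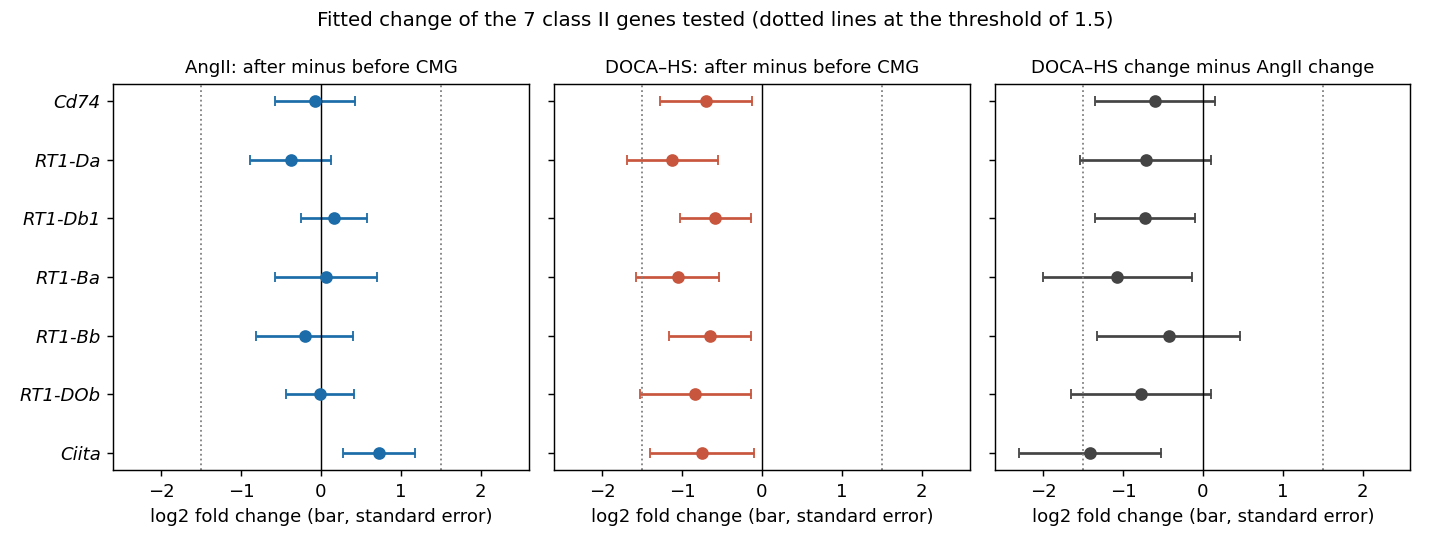
Log2 fold change after against before CMG (horizontal axis) of the 7 tested class II genes in AngII (left) and DOCA–HS (middle), and the DOCA–HS change minus the AngII change (right), with bars of 1 SE from edgeR. Dotted lines mark the study's fold limit of 1.5 on the log2 scale. The DOCA–HS values run from -1.12 to -0.58 and the AngII values from -0.38 to 0.72, and the differences lie below 0.

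**Figure D3:**
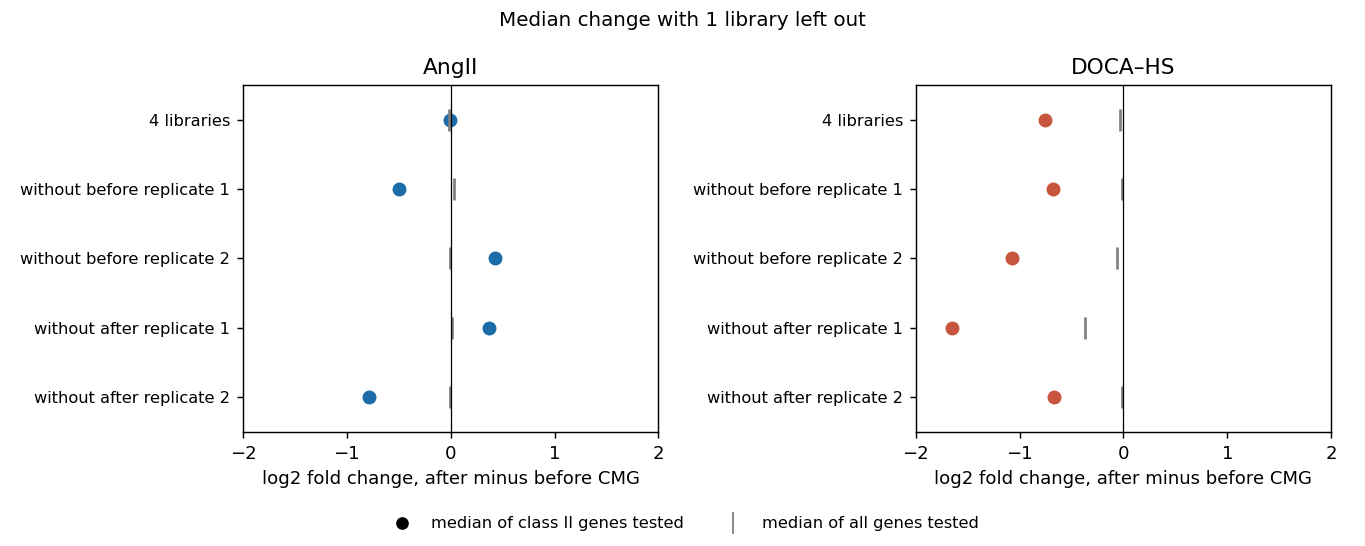
Median log2 fold change of the tested class II genes after against before CMG (horizontal axis) for each model, in the fit with all 4 libraries and with each library left out in turn, as points, with the median of all genes tested as grey ticks. The AngII median runs from -0.79 to 0.43 and crosses 0, and the DOCA–HS median runs from -1.65 to -0.67 and stays below 0.

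The change after CMG in DOCA–HS was compared directly with that in AngII as an interaction term over the 8 libraries. The difference, DOCA–HS minus AngII, was above 0 for 0 of 7 members and 44.5% of genes, with a median log2 value of -0.73 against -0.12 for all genes. No member passed, against 2.25% of 7994 genes higher and 0.913% lower, and 3.74% of genes and 0 of 7 members had an unadjusted p of at most 0.05. Ciita gave the largest difference among the members, with a log2 value of -1.42 (SE 0.89) and an adjusted p of 0.881 by edgeR. With the replicate number as a block, Ciita met the criterion, with -1.56 (SE 0.63), an unadjusted p of 0.0163 and an edgeR adjusted p of 0.485. In that fit 329 of all 7994 genes met the criterion as higher and 125 as lower. Without the second AngII library after CMG the median difference was 0.01 and 3 of 7 members were below 0. Averaged over both models, the change after CMG had a median of -0.40 against 0.03 for all genes. RT1-Da was lowest, at -0.76 (SE 0.42) with an edgeR adjusted p of 1. The criterion was met by 0 of 7, against 0.163% of genes in each direction. A p of at most 0.05 was found for 0 of 7 members and 3.9% of genes, and 0 of 7 members and 53.0% of genes were above 0.

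Before CMG, class II levels were compared between the models, which also differ in the week of sampling and share their libraries with the comparisons already given. In DOCA–HS against AngII, 0 of 7 members met the criterion, against 0.425% of 7994 genes higher and 0.413% lower. The median log2 difference of the members was 0.44, against 0.06 for all genes, and 6 of 7 were above 0, as were 55.2% of genes. An unadjusted p of at most 0.05 was found for 0 of 7 members and 3.38% of genes. Under library totals, 7 of 7 were above 0 with a median of 1.30, but the median of all genes was then 0.86. Ciita and RT1-Ba had the largest differences, 1.12 (SE 0.63) and 1.02 (SE 0.66), with edgeR unadjusted p of 0.103 and 0.149 and an adjusted p of 0.992 for both. Both DOCA–HS libraries exceeded both AngII libraries for 3 of 7 members (RT1-Ba, RT1-Db1 and Ciita), against 24.3% of genes, and 0 of 7 were lower without overlap, against 21.2% of genes. Without the second AngII library before CMG, RT1-Ba had a log2 difference of 2.15, and the median was 0.95 for the members and 0.08 for all genes. Without the first AngII library before CMG the member median was 0.17, against 0.07 for all genes, and 2 of 7 members were below 0. After CMG the groups of the 7 members overlapped between the models, whereas 15.9% of genes were lower without overlap. The log2 differences then ran from -0.50 to -0.05, and 0 of 7 members and 46.5% of genes were above 0. A p of at most 0.05 was found for 0 of 7 members and 2.79% of genes, and 0 of 7 met the criterion, against 1.09% of genes higher and 0.313% lower. Without the second AngII library after CMG the median difference after CMG was 0.50, in place of -0.30.

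The alpha and beta chains of a pair were also set against each other within each library, where the scaling cancels. Of the counts on RT1-Ba and RT1-Bb together, RT1-Ba took 34.9% and 41.9% in the AngII libraries before CMG and 46.2% and 43.7% after it. In DOCA–HS the RT1-Ba share was 68.1% and 48.7% before CMG, against 65.9% and 34.9% afterwards. The first DOCA–HS library of each group stood apart: the exact 95% Clopper-Pearson intervals, 65.7 to 70.4% before and 62.0 to 69.8% after CMG, overlapped each other and lay above those of the other 6 libraries, which reached at most 54.3%. The interval of the shallow library was wide, from 23.3 to 48.0%. The share of RT1-Da in RT1-Da and RT1-Db1 together was more even, at 69.6 to 80.2% in 7 libraries and 57.5% (45.4 to 69.0%) in the shallow one. Such intervals cover counting error only, since reads are not independent molecules. Reads of all rats were aligned to a single reference, and RT1 genes are polymorphic among rats. Its part in the counts of each chain was not tested.

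**Figure D4:**
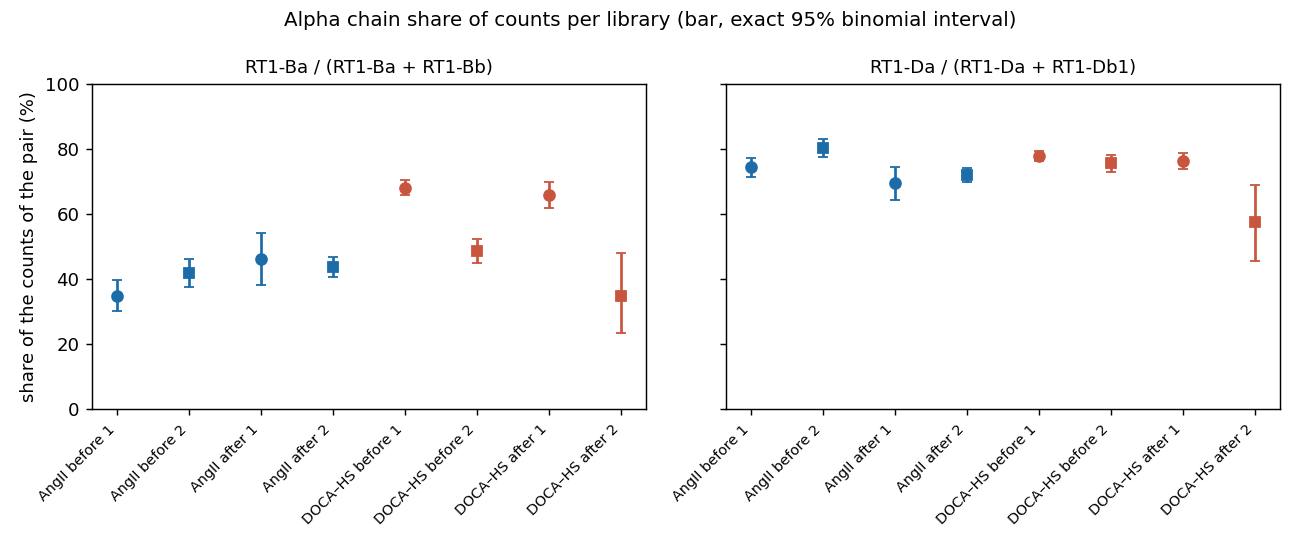
Share of the alpha chain (vertical axis, percent) in the counts of RT1-Ba plus RT1-Bb and of RT1-Da plus RT1-Db1 in each of the 8 libraries, with exact 95% Clopper-Pearson intervals as bars. The first DOCA–HS library before and after CMG has an RT1-Ba share of 68.1% and 65.9%, and the other 6 libraries have 34.9% to 48.7%.

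Over the 8 libraries the members varied together to different degrees. Pearson's r of log2 CPM ran from 0.11, for RT1-Bb with RT1-DOb, to 0.96, for RT1-Db1 with Cd74. Ciita had an r of 0.56 with Cd74, 0.19 with RT1-Bb and 0.88 with RT1-DOb, whose lowest values both fell in the shallow library. The points share the libraries and their scaling factors, and the values are descriptions. Among 7396 genes, those whose pattern was most like the mean of RT1-Ba, RT1-Bb, RT1-Da, RT1-Db1 and Cd74 over the 8 libraries were Cd37 (r = 0.978), a tetraspanin of B cells, Srebf2 (0.970), Shisa5 (0.970), Sytl1 (0.955), Glod4 (0.955) and Phf8 (0.940). Without the first AngII library before and after CMG, which lay farthest from the median, the r of these 6 genes was 0.887 to 0.953 over 6 libraries.

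Cell type markers were read beside the class II genes. The CPM of the 9 members summed to 324 and 659 before and 272 and 626 after CMG in AngII. In DOCA–HS the sum was 736 and 614 before CMG, against 407 and 376 afterwards. Most of each sum was Cd74, at 211 and 415 CPM before and 185 and 398 CPM after CMG in AngII. In DOCA–HS Cd74 gave 469 and 402 CPM before and 258 and 278 CPM after CMG. The sum over the B cell markers, of which 13 of 14 were in the count file, was 96.4 and 135 before and 97.2 and 178 after CMG in AngII, and 214 and 159 before and 129 and 66.8 after CMG in DOCA–HS. Thus the lower class II sum after CMG in DOCA–HS went with a lower B cell marker sum. A lower T cell marker sum was found there as well, with 282 and 282 CPM before and 194 and 243 CPM after CMG. All 13 B cell markers were below 0 there, with a median log2 fold change of -0.89, 8 of 13 were lower without overlap (21.1% of all genes), and 0 met the criterion. In AngII 11 of 13 were above 0, with a median of 0.35. Blk and Pax5, a kinase and a transcription factor of B cells, were below 0 in both models, with average changes of -0.69 (SE 0.44) and -0.80 (SE 0.48). Ms4a1 (CD20) had a difference of change between the models of -1.78 (SE 0.75) and met the criterion with an edgeR unadjusted p of 0.0382. The ratio of the class II sum to the B cell marker sum was 3.36, 4.88, 2.80 and 3.51 in AngII and 3.43, 3.87, 3.16 and 5.63 in DOCA–HS, in the order of the 2 libraries before and the 2 after CMG, so that the groups of each model overlapped. The part of B cells in the class II values was not tested.

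The monocyte markers, of which 12 of 14 were in the file, summed to 447 and 428 CPM before and 558 and 558 CPM after CMG in AngII, and to 474 and 721 before and 687 and 414 after CMG in DOCA–HS. Most of each sum was Lyz2, at 354 and 373 CPM before and 403 and 433 CPM after CMG in AngII. In DOCA–HS Lyz2 was at 359 and 628 CPM before and 497 and 345 CPM after CMG. The DOCA–HS groups of the monocyte marker sum overlapped, and 8 of 11 tested markers were above 0 there, with a median log2 fold change of 0.30. In AngII 4 of 11, Csf1r, Cd68, Fcgr1a and Itgam, had an unadjusted p of at most 0.05 (6.65% of all genes, in either direction) and were higher after CMG, and 0 met the fold criterion. Cx3cr1, a chemokine receptor of monocytes, had 1.33 (SE 0.71) in AngII and 1.201 (SE 0.717) in DOCA–HS. Its counts were low: 30 and 1 before and 29 and 40 after CMG in AngII. In DOCA–HS they were 44 and 7 before and 67 and 1 after CMG, and the groups overlapped. The ratio of class II to monocyte marker sums was 0.723 and 1.54 before and 0.488 and 1.12 after CMG in AngII. In DOCA–HS that ratio was 1.55 and 0.852 before and 0.592 and 0.908 after CMG. Of the dendritic cell markers, 4 of 12 could be tested, and Xcr1, Zbtb46, Batf3 and Clec9a, which define conventional dendritic cells, had at most 4 counts in any library. Runx2 alone of that list met the criterion, upregulated in AngII with a log2 fold change of 2.21 (SE 0.67), and Tcf4, which drives plasmacytoid dendritic cells, had 0.15 (SE 0.53) in AngII and 0.78 (SE 0.65) in DOCA–HS.

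**Figure D5:**
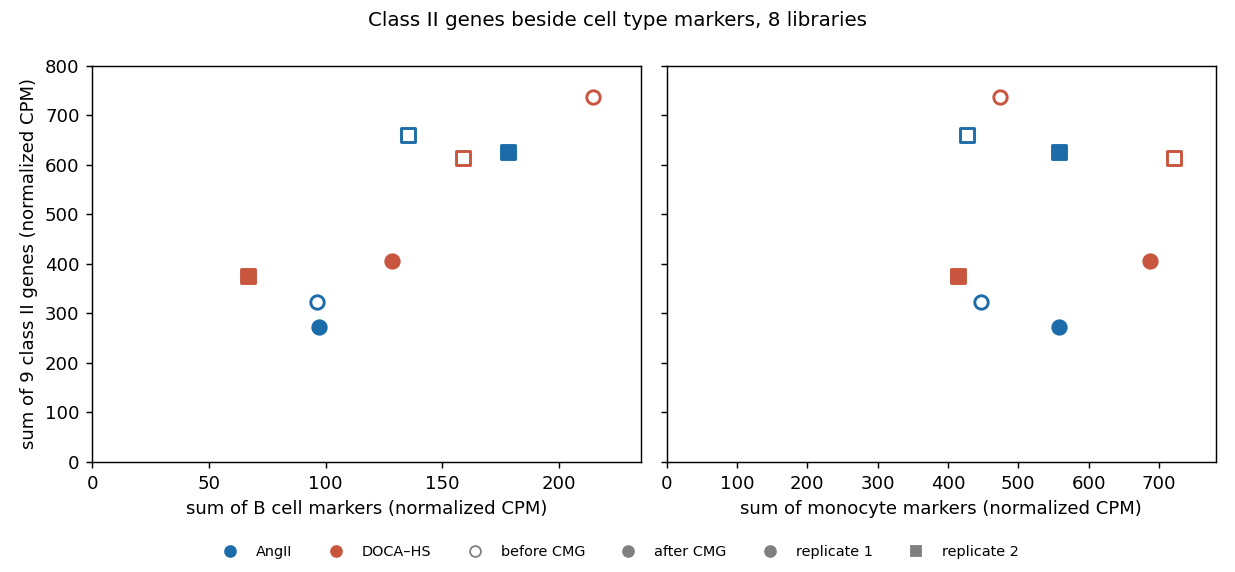
Summed CPM of the 9 class II genes (vertical axis) against the summed CPM of the B cell markers (left) and of the monocyte markers (right), with 1 point per library (open before CMG, filled after it) and both axes linear from 0. In DOCA–HS both sums on the left are lower after CMG (class II 407 and 376, B cell markers 129 and 66.8) than before it, while the monocyte sums on the right overlap. Cd74 makes up most of each class II sum and Lyz2 most of each monocyte sum.

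Among the factors that act with Ciita at the promoter module, 6 of 7 were tested, and Rfxap had 0 counts in 7 libraries and 4 in the other. Rfx5, the DNA-binding subunit of RFX, was at 3.69 and 2.70 CPM before and 5.28 and 8.42 CPM after CMG in AngII. Both later libraries were higher, with a log2 fold change of 1.10 (SE 0.36) and an edgeR unadjusted p of 0.0144 (adjusted p 0.628), below the fold limit. In DOCA–HS Rfx5 was at 6.14 and 3.61 CPM before and 4.99 and 0.703 CPM after CMG, with a log2 fold change of -0.40 (SE 0.62). The difference between the models for Rfx5 was -1.47 (SE 0.75), with an unadjusted p of 0.0782. The other factors tested, Rfxank, Nfya, Nfyb, Nfyc and Creb1, had log2 fold changes from -0.33 to 0.58 over both models, and 0 of 6 factors met the criterion in either.

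On the interferon gamma route, which induces Ciita, 11 of 12 genes were tested. Socs1, the feedback inhibitor of the JAK kinases on that route, had 63 and 28 counts in the AngII libraries of week 1 and 4 and 14 counts in those of week 5. Socs1 was thus downregulated from 4.84 ± 0.156 to 0.837 ± 0.279 CPM (SD, n = 2), with a log2 fold change of -2.42 (SE 0.40), an edgeR unadjusted p of 0.000304 and an adjusted p of 0.547. In DOCA–HS the Socs1 counts were 22, 11, 8 and 1 in the same order, with a log2 fold change of -0.92 and an adjusted p of 0.997. Socs1 was the only gene of this list to meet the criterion in either model, against 0.333% of all genes as lower in AngII. Before CMG Socs1 also met it as lower in DOCA–HS than in AngII (0.413% of all genes), with a log2 difference of -2.01. Its DOCA–HS mean before CMG was 1.19 CPM. Spi1, a myeloid and B cell transcription factor, had a log2 fold change of 0.85 (SE 0.30) and an unadjusted p of 0.0228 in AngII.

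Genes that prepare peptides for class II were tested as a further list. Of its 15 tested genes, 12 were above 0 in DOCA–HS, with a median log2 fold change of 0.52, and 0 met the criterion. Cst3, the secreted cathepsin inhibitor cystatin C, was at 128 ± 5.05 CPM before and 356 ± 56.4 CPM after CMG (SD, n = 2), with a log2 fold change of 1.48 (SE 0.56) and an unadjusted p of 0.029, just under the fold limit. Lamp2, a lysosomal membrane protein, had 1.02 (SE 0.43) with an unadjusted p of 0.0457, and Ctss, the cathepsin that trims the invariant chain, had 0.34 (SE 0.43). In AngII the median of the 15 was 0.12, and Ctsz had 0.68 (SE 0.28) with an unadjusted p of 0.0442. These p-values are from edgeR, and the adjusted p was at least 0.738 for each of the 4 genes in these comparisons.

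Among other class II genes, RT1-DOa, the partner of RT1-DOb, had log2 fold changes of -0.17 (SE 0.57) in AngII and -0.90 (SE 0.58) in DOCA–HS, where its groups did not overlap. The class I presentation genes had medians of -0.12 over 26 genes in AngII and 0.27 over 25 genes in DOCA–HS. Of these, 1 gene, RT1-T24-4, met the criterion as higher in DOCA–HS after CMG (1.79% of all genes). RT1-T24-4 was at 3.43 and 1.70 CPM before and 4.30 and 15.5 CPM after CMG there. The highest of these values rested on 22 counts in the shallow library. RT1-CE1, a class I heavy chain, met the criterion as lower in DOCA–HS than in AngII before CMG, with -1.95 (SE 0.86). Tap2, a subunit of the peptide transporter, had an average change of -1.14 (SE 0.68). Class I genes of the RT1 region are closely related, so the division of reads among them is uncertain. Of the genes for costimulation and class II receptors, 0 of 6 met it in AngII and 0 of 8 in DOCA–HS, where the median was -0.40 and Icos, a T cell costimulatory receptor, had -1.495 (SE 0.565) with an edgeR unadjusted p of 0.0283. Ctla4, an inhibitory T cell receptor, met the criterion as lower in the average change, with -2.04 (SE 0.70). Cd4, the receptor of T cells for class II, had 0.58 (SE 0.38) in AngII and -0.41 (SE 1.05) in DOCA–HS, where it was at 0 counts in the shallow library. The T cell markers were below 0 for 10 of 11 genes in each model, and 0 met the criterion. Without overlap, 8 of 11 were lower in AngII (18.6% of all genes) and 5 of 11 in DOCA–HS (21.1%). The T cell marker sum was 258 and 297 CPM before and 170 and 224 CPM after CMG in AngII. In DOCA–HS that sum was 282 and 282 CPM before and 194 and 243 CPM after CMG. Cd3e and Cd3g, chains of the T cell receptor complex, had average changes of -0.69 (SE 0.27) and -0.62 (SE 0.29). Of 9 tested neutrophil markers, Ngp and Lcn2 met it as lower in DOCA–HS (0.259% of all genes), and 3 were above 0. Lcn2 had 18 and 18 counts before and 0 and 1 after CMG. The neutrophil marker sum was 130 and 432 CPM before and 198 and 496 CPM after CMG, so its groups overlapped. Of 5 tested platelet markers, Pf4 and Treml1 met the criterion as higher in DOCA–HS (1.79% of all genes), and 0 of 9 erythroid markers met it in either model. Ahsp, the alpha-hemoglobin chaperone, had log2 fold changes of -0.38 in AngII and 1.31 in DOCA–HS, and Ank1 had -0.74 and -0.26.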

How the data were processed

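Whole-blood RNA of rats of 2 hypertension models was sequenced by the authors, who aligned the reads with HISAT2 to the rn6 assembly, counted them per gene with HTSeq (non-empty intersection mode, reverse strand setting) and deposited raw counts. The file held 17446 genes, 5754 of them without counts, and 0 columns of no sample. It holds 2 hemoglobin genes with most of the counts, which were kept in the library totals.

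Groups came from the sample labels, with 2 libraries each. Nothing says whether the libraries of a group, or those of the same number before and after CMG, came from separate rats, so p-values measure the spread between these libraries, which may be technical. Replicates of a group differed by more than sampling noise (chi-square per degree of freedom 15.4 to 94.6). Deviations from the group means of same-numbered libraries had a correlation of 0.415 in AngII and 0.309 in DOCA–HS over 7994 genes. With 2 libraries a group, the deviations of the second mirror those of the first. Each model thus gives a single value, as a hint from the data.

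Genes were filtered with filterByExpr, scaled by TMM and tested with edgeR 4.0.16 (quasi-likelihood test, Benjamini-Hochberg over all genes tested) in R 4.3.3. Changes after CMG were fitted on the 4 libraries of a model, and comparisons between models, the difference and the average on all 8. Correlations used log2 CPM with a prior count of 2. Alternatives were DESeq2 1.42.0, limma-voom (limma 3.58.1), other scalings and filters, the replicate number as a block, and leaving out each library. The fits were tested on simulated data.

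Named are all 9 members, from each list the genes that met the criterion in any comparison and the 2 with the lowest p in the average change, and the 6 genes with the most similar pattern. Other genes are named for their role or their p, and were chosen after their values were seen. The lists cover other class II genes, class II transcription factors, class II processing, interferon gamma signalling, class I presentation, costimulation and receptors, and markers of B cells, monocytes, dendritic cells, T cells, neutrophils, erythroid cells and platelets. The members and lists were chosen with earlier results of these data known. Promoter sequences are from RefSeq (GRCr8), not the build of the counts, and no count coordinate was used.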

Additional observations from a re-analysis of the deposited data

How the results depend on the processing

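With 2 libraries a group, each result on the class II genes rests on few samples, and the shallow DOCA–HS library holds 535 class II counts. Over the alternatives, 176 summary values stayed within a set limit of size and 28 moved beyond it. The limit was a ratio for counts of members and the spread between replicates for medians. Direction was not part of it: the AngII median was -0.01 in the main fit and 0.44 with library totals. Of the values of single genes, 604 stayed on the same side of the criterion and 16 came to pass it. A change of sign counted as reversed only where the gene met the criterion in the main or the alternative fit, and 0 did so. Other changes of sign were not counted: in AngII 4 of 7 members were below 0 in the main fit and 0 of 7 with library totals. The cause of these moves was not tested.

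With library totals as the scale, 1 member met the criterion in DOCA–HS after CMG (Cd74, -1.53), 1 in the models before CMG (RT1-Ba, 1.97) and 1 in the difference (Cd74, -1.96). Over all genes it was met, as higher and lower in the same order, by 0 and 9 of 7720, 42 and 3 of 7994, and 2 and 30 of 7994. The medians were then -1.53, 1.30 and -1.96, against -0.76, 0.86 and -1.21 for all genes. On that scale 7 of 7 members were higher in DOCA–HS before CMG with no overlap, against 61.1% of all genes. With totals outside hemoglobin, 1 member passed before CMG (RT1-Ba, 1.80) and 1 in the difference (Cd74, -1.60). Of all 7994 genes, 279 passed as higher and 5 as lower before CMG, and 14 and 150 in the difference. The medians were 1.19 and -1.61, against 0.78 and -0.89 for all genes. Before CMG 7 of 7 were higher with no overlap, against 68.3% of all genes. Without a filter, 1 member (RT1-DMb, at most 9 counts in a library) passed in AngII, 1 in the models before CMG and 1 in the average change. Of all 11196 genes in AngII, 134 passed as higher and 67 as lower. Of 11692 genes, 72 and 74 passed between the models before CMG, and 83 and 37 in the average change. With the replicate block, 1 member passed in the difference (Ciita, -1.56), where 329 of all 7994 genes passed as higher and 125 as lower. The block changed no other call of a member. The block raised the genes with an adjusted p under 0.05 in AngII from 0 to 165, with 0 class II genes among them, and gave medians of -0.10 in AngII and -1.10 in DOCA–HS.

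Each library was also left out in turn. A group left with a single library was assumed to vary like the other groups in the fit, so effect sizes are given here. The medians ran from -0.79 to 0.43 in AngII, from -1.65 to -0.67 in DOCA–HS, from -0.78 to 0.50 between the models after CMG and from -1.43 to 0.0098 in the difference. In the fits with the lowest of these medians, the median of all genes was -0.003, -0.37, -0.07 and -0.50 in the same order. Between the models before CMG the member median ran from 0.17 to 0.95, where the median of all genes was 0.07 and 0.08. Members higher in DOCA–HS without overlap before CMG numbered 3 to 7, against 35.6% to 41.1% of all genes (41.0% without the second AngII library, where all 7 were higher).

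Counts over all genes also moved. In AngII 65 genes were higher and 24 lower, against 210 and 12 with library totals, 134 and 67 without a filter, and 11 and 11 where every library had to hold 10 counts of a gene. In DOCA–HS 138 were higher and 20 lower, against 0 and 9 with library totals, 225 and 43 without a filter, and 31 and 1 under the minimum of 10, where 5 members were left. DESeq2 gave 48 and 18 in AngII and 211 and 8 in DOCA–HS.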
